A study of Mus musculus with 88 samples.

Results

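Resilient and control mice of the C57BL/6Crl (B6) strain were compared in the bed nucleus of the stria terminalis (BNST) across all expressed genes. The members were the BNST libraries whose labels gave this strain and the phenotype resilient or control, 5 mice of each. They were 10 of the 88 libraries of the series and 10 of its 28 BNST libraries. In the study, male B6 and DBA/2Crl (D2) mice went through chronic social defeat stress, in which an aggressive male repeatedly defeats the mouse, or stayed undefeated as controls. A social avoidance test after the last defeat then sorted the defeated mice, by the social interaction of controls of their own strain, into resilient and susceptible ones. All mice compared were 8 weeks old at dissection, about a week after the last defeat, and were inbred mice for which the labels name no engineered allele. Resilient mice differed from controls both in having been defeated and in having been selected on behavior, and these cannot be told apart here. Each library came from 1 mouse, so the spread is that between mice.

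The BNST is a mostly GABAergic part of the extended amygdala that lies between the septum, the striatum and the hypothalamus. It passes signals from the amygdala and hippocampus to the hypothalamic and brainstem centers that drive hormonal and behavioral responses to stress, and it is known for its part in sustained anxiety. Resilience here means that a defeated animal keeps its social behavior.

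The libraries held 12389258 to 16362207 reads on genes in controls and 13650148 to 18274709 in resilient mice, and any pair of the 10 had a Spearman correlation of 0.959 to 0.991 across genes, given as a description. Levels are read counts scaled to a common library size (CPM) with TMM factors, which makes libraries comparable, and differences are log2 fold changes, resilient minus control, with their standard error (SE). Of 48795 genes, 17515 reached 1 CPM in at least 6 BNST libraries and were tested with edgeR's quasi-likelihood test and Benjamini-Hochberg adjustment. Markers of GABAergic neurons were high in every mouse. Gad1 and Gad2, the enzymes that make GABA, were at 362 to 526 and 469 to 541 CPM in controls and at 325 to 513 and 362 to 546 CPM in resilient mice. Neither gene tells BNST neurons from striatal ones, whose marker Pde10a was at 965 to 1743 CPM in controls. Of 26 genes listed for BNST neurons, among them Esr1 at 1.99 to 5.18 and Meis2 at 331 to 734 CPM in controls, 25 could be tested. The exception was Cyp19a1, the aromatase, which gave 3, 0, 6, 0 and 0 reads in controls 1 to 5 and 0, 0, 0, 0 and 1 in resilient mice 1 to 5.

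No gene differed between resilient and control mice at an adjusted p under 0.05 by edgeR (0 of 17515, 0%). At an unadjusted p under 0.05 there were 328 genes (1.87%), of which 186 were higher (1.06%) and 142 lower (0.811%) in resilient mice. That is below the share of 0.05 that the threshold itself would give by chance. Over all genes, 8486 had a log2 fold change above 0 (48.4%), the background for the counts of list members below. DESeq2 called 1 gene, Gh (at most 0.332 CPM in controls), at an adjusted p under 0.05 and had 411 at an unadjusted one. With limma voom these counts were 0 and 301. The values below are thus levels and unadjusted results, with no gene said to have changed.

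**Figure D1:**
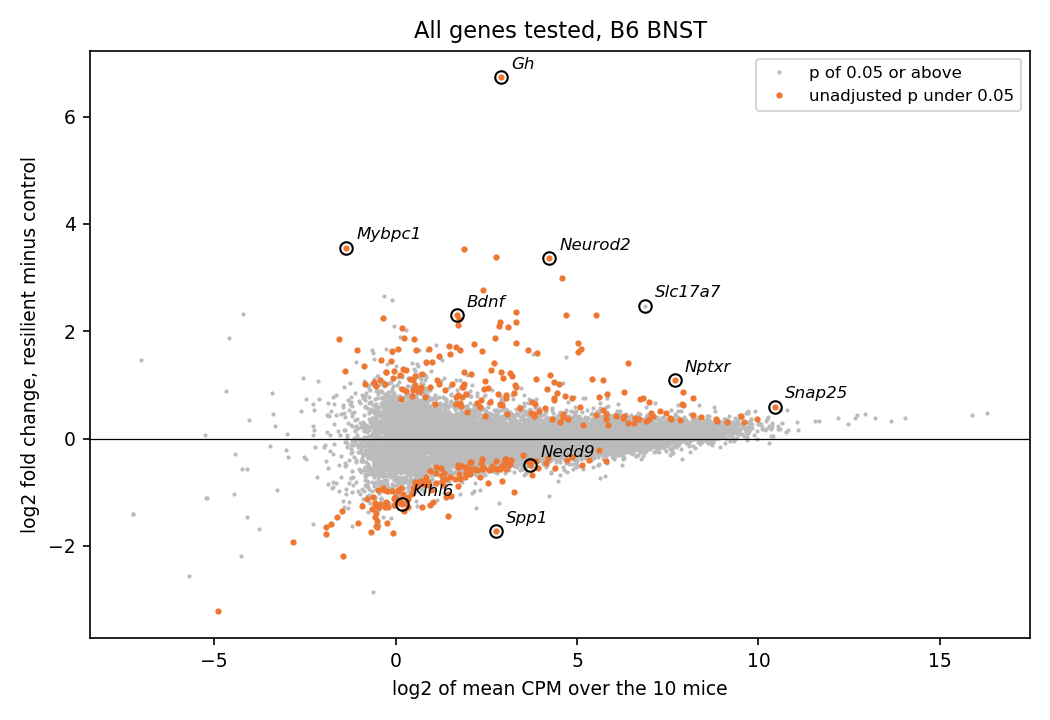
Each point is a gene tested in the B6 BNST, with the log2 of its mean CPM over the 10 mice on the x axis and its log2 fold change, resilient minus control, on the y axis. The 328 genes at an unadjusted p under 0.05 are marked by color, and Gh has the highest log2 fold change, 6.73.

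Of 16 tested markers of excitatory neurons of the cortex and hippocampus, none passed adjustment and 6 were higher in resilient mice at an unadjusted p under 0.05. In 9 of the 16, resilient mice 2, 3 and 5 were all above the other 7 mice. Over all genes these shares were 1.06% and 2.88%. Neurod2, a bHLH factor of excitatory neurons (ENSMUSG00000038255, GRCm38 chr11:98325415-98329648), was at 3.98, 9.55, 0.894, 1.2 and 0.907 CPM in controls 1 to 5 and at 0.628, 20.3, 68.1, 1.19 and 80.1 CPM in resilient mice 1 to 5. Resilient mice 2, 3 and 5 were above every control, resilient mouse 4 lay within the control range and resilient mouse 1 was below all controls (log2 fold change 3.36, SE 1.07, edgeR unadjusted p = 0.00393).

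Slc17a7, the vesicular glutamate transporter that marks cortical and hippocampal excitatory neurons (ENSMUSG00000070570, GRCm38 chr7:45163949-45176142), was at 33.3, 110.4, 3.7, 10.4 and 19.6 CPM in controls and at 3.84, 145, 514, 4.35 and 322 CPM in resilient mice. Control 2 was the highest control and lay above resilient mice 1 and 4. The log2 fold change was 2.48 (SE 1.22, edgeR unadjusted p = 0.0518). Emx1, a transcription factor of the dorsal telencephalon that was too low to be tested, gave 9, 26, 2, 0 and 0 reads in controls and 0, 14, 65, 0 and 97 in resilient mice. Control 2 and resilient mice 2, 3 and 5 held most of these reads.

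Of 17 genes listed for cortical and hippocampal excitatory neurons, 16 were tested. Of these, 11 were above 0 and 6 were higher at an unadjusted p under 0.05, with 0 lower, and the median log2 fold change was 0.97 beside −0.00676 over all genes. The 6 included Neurod2, Neurod6, Tbr1, Fezf2 and Nptx1. Tbr1, which specifies deep-layer neurons, was at 6.002 to 33.8 CPM in controls and 3.63 to 174 CPM in resilient mice (log2 fold change 2.30, SE 0.78). Nptx1, a pentraxin of excitatory synapses, was at 42.8, 71.4, 34.9, 51.5 and 32.1 CPM in controls and 28, 98, 215, 38.4 and 237 CPM in resilient mice (log2 fold change 1.41, SE 0.44). The bHLH factor Neurod6 had a log2 fold change of 3.39 (SE 1.12) and Fezf2, a factor of subcortically projecting neurons, 1.64 (SE 0.59). Other members did not follow: Prox1, a dentate gyrus factor, was at 34 to 107 CPM in controls and 30.1 to 86.1 in resilient mice, Wfs1 at 123 to 297 and 110.3 to 275, and Rasgrf2 at 59.95 to 111 and 52.3 to 104. Summed over the list, the level was 1797, 2282, 2164, 3358 and 1422 CPM in controls and 1784, 3749.8, 4423, 2039.95 and 4244 CPM in resilient mice.

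**Figure D2:**
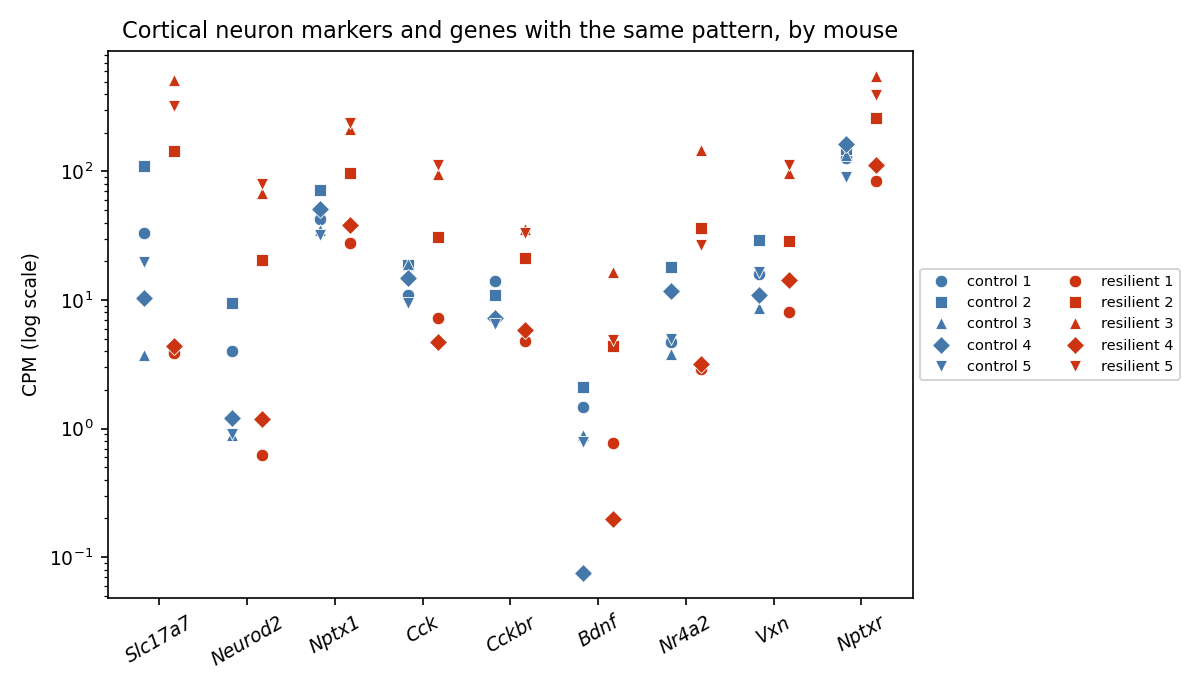
CPM on a log axis, by mouse, of cortical neuron markers and genes of the same pattern, in the 5 control and 5 resilient mice. For Slc17a7, Neurod2, Nptx1 and Cck, resilient mice 2, 3 and 5 lie above resilient mice 1 and 4.

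Many of the genes with higher values had this pattern. In 113 of the 186 genes higher at an unadjusted p under 0.05 (60.8%), resilient mice 2, 3 and 5 were all above the other 7 mice, beside 504 of all 17515 genes (2.88%). A gene had to be high in resilient mice to be among the 186, so this share is a description. They were below the other 7 mice in 33 of the 142 lower genes (23.2%), beside 410 of all (2.34%). Of the 10 mice compared, 4 were over 100 CPM of Slc17a7 (control 2 and resilient mice 2, 3 and 5). Leaving these 4 libraries out kept only resilient mice 1 and 4 against controls 1, 3, 4 and 5. In that fit 118 genes had an unadjusted p under 0.05, 36 higher and 82 lower, of which 28 were among the 328. All values without the 4 libraries, here and below, rest on these few mice. With the mean level of the cortical list as a covariate there were 120, of which 81 were among the 328. Both alternatives were chosen after seeing the data, the first drops mice by their Slc17a7 level, and the list behind the second holds Neurod2 and Slc17a7, so lower values for these markers were built into both. The log2 fold change of Neurod2 was then −0.93 and −0.036. Dropping the 4 libraries also built in lower values for any other gene highest in resilient mice 2, 3 and 5.

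Among resilient mice, properties of the libraries moved with these 3. Resilient mice 2, 3 and 5 had TMM factors of 0.831, 0.838 and 0.885, and resilient mice 1 and 4 had 1.05 and 1.01. Mitochondrial rRNA took 16.2%, 18.4% and 15.1% of reads in the first 3 and 11% and 13.2% in the others, so that the 3 were also highest here among resilient mice. Control 4 had the lowest TMM factor of the 10, 0.819, and 15.7% mitochondrial rRNA, above resilient mouse 5, with Slc17a7 at 10.4 and Neurod2 at 1.2 CPM. Between groups that share was 11.7% ± 3.81 in controls and 14.8% ± 2.82 in resilient mice (SD, n = 5 each, exact two-sided permutation test, p = 0.190, 0.310 adjusted over 3 library properties). The smallest p that 5 mice against 5 allow is 0.00794. With that share as a covariate, 305 genes had an unadjusted p under 0.05, 164 of them higher. Libraries had been prepared in 2 sets, set 1 with controls 1, 2 and 5 and resilient mice 3 and 5, and set 2 with controls 3 and 4 and resilient mice 1, 2 and 4. The mean of Neurod2 was higher in resilient mice within both, by 4.48 and 1.25 on the log2 scale. In set 2 this rested on resilient mouse 2. There resilient mouse 1 was below both controls and resilient mouse 4 lay between them. In mixed tissue, more cells of a type and more RNA per cell cannot be told apart, and whether tissue from outside the BNST was included was not tested.

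Some genes of neurotrophin signaling were highest in the same mice. Bdnf, a neurotrophin that strengthens synapses (ENSMUSG00000048482, GRCm38 chr2:109674700-109727007), was at 1.46, 2.12, 0.894, 0.0751 and 0.786 CPM in controls and 0.768, 4.36, 16.5, 0.198 and 4.92 CPM in resilient mice. Resilient mice 2, 3 and 5 were above all controls (log2 fold change 2.30, SE 0.79, edgeR unadjusted p = 0.00685), and the difference was −0.75 without the 4 libraries. Of 25 neurotrophin and plasticity genes tested, 17 were above 0 and 4 were higher at an unadjusted p under 0.05, with a median of 0.10. They were Bdnf, Nptx1, the related pentraxin Nptx2 (log2 fold change 0.79, SE 0.33) and the ErbB4 ligand Nrg3 (0.41, SE 0.18). All 4 were highest in resilient mice 2, 3 and 5.

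Of 25 immediate early genes tested, which neurons switch on soon after activity, 23 were above 0 with a median of 0.40, and 3, Bdnf, Nr4a2 and Nptx2, were higher at an unadjusted p under 0.05. Nr4a2, a nuclear receptor that also marks deep cortical neurons, was at 4.71, 18, 3.83, 11.8 and 4.96 CPM in controls and 2.93, 36, 146, 3.16 and 26.8 CPM in resilient mice (log2 fold change 2.31, SE 0.92, edgeR unadjusted p = 0.0179). Resilient mouse 3 was far above the others. Fos, a marker of recent activity, was at 1.86, 2.92, 3.001, 5.03 and 5.68 CPM in controls and 3.56, 8.18, 1.4, 5.21 and 5.93 CPM in resilient mice, Arc at 36.8 to 161 and 41.5 to 229, and Egr1 at 150.04 to 705 and 212 to 722. The groups overlapped for all 3, and without the 4 libraries the median of the list was −0.19.

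Of 25 neuropeptide genes tested, 15 were above 0 (median 0.072), and Vip, Cck and Cort were higher at an unadjusted p under 0.05. Cck, cholecystokinin, a peptide of many cortical neurons, was at 11, 18.7, 19.1, 15 and 9.49 CPM in controls and 7.26, 31.1, 95.8, 4.68 and 113 CPM in resilient mice. Resilient mice held both the lowest and the highest values (log2 fold change 1.78, SE 0.73, edgeR unadjusted p = 0.0212), with 3.05 in library set 1 and −0.73 in set 2. Vip, a peptide of cortical interneurons, was at 0.376 to 1.73 CPM in controls and 0.489 to 5.5 in resilient mice (log2 fold change 1.67, SE 0.56), and Cort, cortistatin, at 0.225 to 0.796 and 0.0659 to 5.13 (1.87, SE 0.78). Crh, the releasing hormone of the stress axis, was at 6.44, 5.17, 1.53, 3.01 and 1.33 CPM in controls and 0.977, 5.21, 5.83, 4.75 and 1.59 CPM in resilient mice. The groups overlapped almost fully (log2 difference 0.072, SE 0.73).

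Of 37 neuropeptide receptors tested, 13 were above 0 (median −0.10). The cholecystokinin receptor Cckbr was at 14, 11, 7.53, 7.29 and 6.47 CPM in controls and 4.82, 21.1, 35.7, 5.8 and 33.1 CPM in resilient mice (log2 fold change 1.12, SE 0.45, edgeR unadjusted p = 0.0184), and the somatostatin receptors Sstr3 (1.21, SE 0.48) and Sstr2 (0.82, SE 0.36) were also higher. Cck and Cckbr were thus highest in the same 3 mice, while the other cholecystokinin receptor, Cckar, was at 0.796 to 2.75 CPM in controls and 0 to 1.88 in resilient mice. Npy5r, a receptor of neuropeptide Y, was lower, at 2.18 to 6.63 CPM in controls and 2.11 to 3.69 in resilient mice (log2 fold change −0.71, SE 0.30). Crhr1, the receptor of Crh, was at 7.7 to 15.9 and 7.26 to 10.6 CPM.

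Of 32 monoamine receptors, transporters and enzymes tested, 19 were above 0 (median 0.040), and 2 were lower at an unadjusted p under 0.05. Htr4, a serotonin receptor, was at 17.5, 20.2, 9.51, 5.78 and 10.6 CPM in controls and 8.03, 6.14, 3.57, 10.6 and 3.47 CPM in resilient mice (log2 fold change −0.996, SE 0.37, edgeR unadjusted p = 0.0128). The difference was −2.13 in library set 1 and 0.12 in set 2, so it was not lower in both. Ddc, which makes dopamine and serotonin from their precursors, was at 8.49, 5.84, 6.51, 3.91 and 6.47 CPM in controls and 2.65, 2.44, 2.1, 4.68 and 7.01 CPM in resilient mice (log2 fold change −0.72, SE 0.31), with −0.83 and −0.69 within the sets. Resilient mice 4 and 5 lay within the range of the controls. Of 40 GABA and glutamate receptors, 22 were above 0 (median 0.028), and Grm2, a presynaptic glutamate receptor, was higher at an unadjusted p under 0.05 (1.22, SE 0.59), with 38 CPM in resilient mouse 5. The difference was 0.16 without that mouse, and 2.54 in library set 1 and −0.84 in set 2.

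Promoters of the genes that were highest in resilient mice 2, 3 and 5 were read for motifs, to show what letters genes of this pattern hold. Of 26 such named genes at an unadjusted p under 0.05, 19 had a RefSeq entry (GRCm38.p6). CAGATG or its reverse complement CATCTG, an E-box bound by NeuroD factors, stood in the 250 bases before the start of 3 (15.8%: Cck, Mybpc1 and Neurod2) and of 3913 of all 27025 promoters (14.5%). TGACGTCA, the full cAMP response element, which is its own reverse complement, stood in 2 (10.5%: Hs3st2 and Sstr2) and in 439 of all (1.62%). The 4 promoters below show a factor, a peptide, an enzyme and a receptor gene of the pattern, with the motif in capitals.
Neurod2, chr11:98329646-98329895, minus strand: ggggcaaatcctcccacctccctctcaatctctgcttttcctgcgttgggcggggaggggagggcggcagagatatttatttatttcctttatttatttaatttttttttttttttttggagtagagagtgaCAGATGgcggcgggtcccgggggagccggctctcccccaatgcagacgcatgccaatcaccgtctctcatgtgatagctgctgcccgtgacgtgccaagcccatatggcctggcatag
Cck, chr9:121495695-121495944, minus strand: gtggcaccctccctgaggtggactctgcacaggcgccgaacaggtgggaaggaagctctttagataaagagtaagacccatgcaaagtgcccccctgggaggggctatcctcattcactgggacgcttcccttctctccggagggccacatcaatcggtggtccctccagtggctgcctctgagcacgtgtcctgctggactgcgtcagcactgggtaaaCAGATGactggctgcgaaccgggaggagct
Hs3st2, chr7:121392046-121392295, plus strand: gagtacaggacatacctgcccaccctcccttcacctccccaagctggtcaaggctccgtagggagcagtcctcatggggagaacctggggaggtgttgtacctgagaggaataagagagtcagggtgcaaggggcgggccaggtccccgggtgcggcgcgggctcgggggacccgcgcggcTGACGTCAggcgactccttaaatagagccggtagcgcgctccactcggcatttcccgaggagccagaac
Sstr2, chr11:113619077-113619326, plus strand: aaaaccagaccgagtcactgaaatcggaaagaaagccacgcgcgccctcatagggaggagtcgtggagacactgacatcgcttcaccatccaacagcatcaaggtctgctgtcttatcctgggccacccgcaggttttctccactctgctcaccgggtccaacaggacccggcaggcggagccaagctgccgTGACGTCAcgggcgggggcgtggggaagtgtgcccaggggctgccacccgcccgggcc
The motif began 118, 30, 69 and 58 bases before the start. A match describes letters and says nothing of binding. Hs3st2, a heparan sulfate sulfotransferase, was at 5.57, 9.55, 5.43, 6.54 and 2.96 CPM in controls and 5.93, 12.9, 40.9, 7.19 and 28.1 CPM in resilient mice (log2 fold change 1.66, SE 0.52).

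Further genes, singled out after their values were seen, had their highest values in the same mice. Nptxr, the receptor of neuronal pentraxins, was at 128, 149, 133, 163 and 90.2 CPM in controls and 83.6, 261, 556, 113 and 390.5 CPM in resilient mice (log2 fold change 1.08, SE 0.35). Vxn was at 8.68 to 29.3 and 8.1 to 113 CPM (1.68, SE 0.50), where control 2 was level with resilient mouse 2, and the vesicular zinc transporter Slc30a3 at 0.225 to 9.29 and 0.14 to 40.1 (2.18, SE 0.91). The Nogo receptor relative Rtn4rl2, the regulator Prdm8, the neurexophilin Nxph3 and the transcripts 9130024F11Rik and Gm11223 had log2 fold changes of 2.77, 2.17, 1.87, 3.54 and 1.54, and Mybpc1, a myosin-binding protein at no more than 1.81 CPM in any of the 10 mice, 3.56. Of 18 general neuronal genes, 16 were above 0 (median 0.23) and 2 were higher at an unadjusted p under 0.05. Snap25, a SNARE protein of vesicle fusion, was at 876 to 1475 CPM in controls and 1008 to 2366 in resilient mice (0.59, SE 0.26), and Syt1, the calcium sensor of release, at 548 to 799.5 and 642 to 1220.5 (0.43, SE 0.18). Without the 4 libraries the median was −0.070.

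Gh, growth hormone, which is made mainly in the pituitary (ENSMUSG00000020713, GRCm38 chr11:106300271-106301865), had the lowest p. It gave 5, 2, 3, 0 and 0 reads in controls 1 to 5 and 122, 233, 629, 26 and 0 in resilient mice 1 to 5, which was 8.52, 15.4, 48.9, 1.71 and 0 CPM in the latter. Resilient mice 1 to 4 were above all controls and resilient mouse 5 had no read. No control reached 1 CPM (at most 0.332). Gh thus entered the test only through libraries where it was higher, resilient mice 1 to 4 among them. Its p-values are given as a description. The mice high in Gh and those high in cortical markers thus overlapped in part. Resilient mice 2 and 3 were high in both. The log2 fold change was 6.73 (SE 1.23, edgeR unadjusted p = 9.16e-06, adjusted p = 0.160), and DESeq2 gave 6.83 with an adjusted p of 0.00116. It was 3.33 within library set 1 and 6.18 within set 2, and 5.20 without the 4 libraries of high Slc17a7. Susceptible B6 mice, also defeated, gave 26, 5, 41, 0 and 56 reads. Prl, prolactin, another pituitary hormone and too low to be tested, gave 0, 0, 3, 0 and 0 reads in controls and 18, 13, 8, 0 and 0 in resilient mice. Cga, a subunit of pituitary glycoprotein hormones, gave 7 reads in resilient mouse 3 and 0 in the other 9 mice. Whether pituitary RNA was present was not tested beyond these hormones.

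Resilient and control mice did not overlap in 47 of 17515 genes (0.268%), with all resilient mice above all controls in 10 (0.0571%) and below in 37 (0.211%). With 5 mice against 5, chance alone would set the groups apart in a share of 0.00794 of genes, more than were seen. Groups that stand apart are thus given as a description. Nedd9, a scaffold protein of integrin signaling and cell migration (ENSMUSG00000021365, GRCm38 chr13:41309581-41487362), was at 14.4, 13.3, 14.5, 18.3 and 16 CPM in controls and 11.7, 10.03, 11.6, 10.3 and 10.6 CPM in resilient mice. The means were 15.3 ± 1.93 and 10.9 ± 0.765 CPM (SD, n = 5 each). The gap between the highest resilient mouse (11.7 CPM) and the lowest control (13.3 CPM) was smaller than the SD of controls. Nedd9 was picked because its groups did not overlap. Its log2 fold change was −0.50 (SE 0.13, edgeR unadjusted p = 0.00103) and did not pass adjustment. The difference was −0.39 in library set 1, −0.61 in set 2 and −0.52 without the 4 libraries of high Slc17a7. Susceptible mice, at 15, 14.5, 15.2, 16.3 and 14.7 CPM, lay within the control range.

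Klhl6, a BTB and kelch protein of lymphoid and myeloid cells (ENSMUSG00000043008, GRCm38 chr16:19946496-19983037), had the lowest p among genes lower in resilient mice and was picked for it. It was at 1.86, 1.46, 0.766, 1.95 and 1.87 CPM in controls and 0.489, 0.726, 0.699, 0.923 and 0.506 CPM in resilient mice. The groups overlapped only through control 3 and resilient mouse 4 (log2 fold change −1.23, SE 0.29, edgeR unadjusted p = 0.000248). The difference was −1.48 and −0.80 within the library sets and −1.18 without the 4 libraries. Susceptible mice were at 2.08, 1.42, 2.07, 1.88 and 2.23 CPM.

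**Figure D3:**
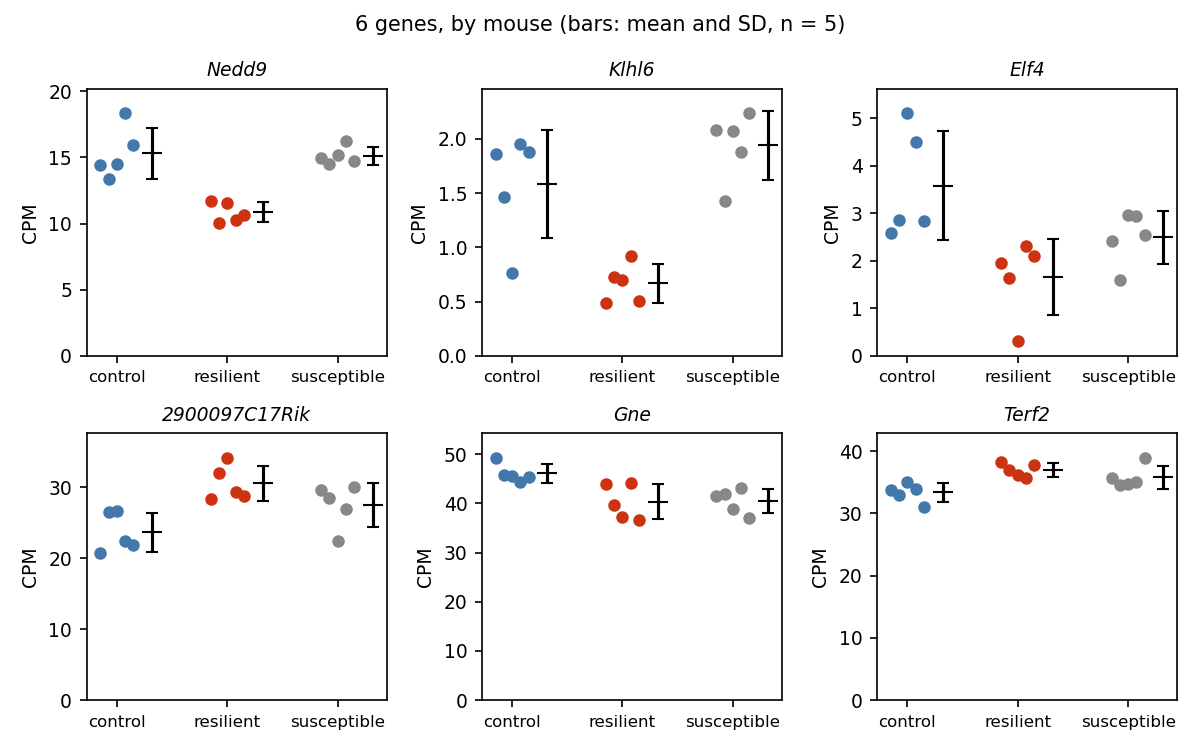
CPM of Nedd9, Klhl6, Elf4, 2900097C17Rik, Gne and Terf2 in each of the 5 control, 5 resilient and 5 susceptible B6 mice, with bars for the mean and SD. Nedd9 is lower in each resilient mouse (10.03 to 11.7) than in each control (13.3 to 18.3), and the susceptible mice (14.5 to 16.3) lie with the controls.

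Other genes of at least 1 CPM on average were below all controls in every resilient mouse. Elf4, an ETS transcription factor of lymphoid cells (ENSMUSG00000031103, GRCm38 chrX:48411046-48463132), was at 2.59, 2.85, 5.11, 4.51 and 2.84 CPM in controls and 1.95, 1.65, 0.311, 2.31 and 2.1 CPM in resilient mice, with resilient mouse 3 the lowest (log2 fold change −1.09, SE 0.35). Mterf1a, a mitochondrial transcription terminator, had a log2 fold change of −1.21 (SE 0.44). The pseudogene Gm18753 and the transcripts C730045M19Rik, 4930506C21Rik, Gm37391 and Gm43032 had −1.27, −1.28, −1.19, −0.92 and −1.23. Clcn2, a chloride channel, was at 32 to 39.4 CPM in controls and 26.5 to 31.9 in resilient mice, and Gne, an enzyme of sialic acid synthesis, at 44.2 to 49.3 and 36.5 to 44, which gave log2 differences of −0.28 (SE 0.14) and −0.19 (SE 0.10).

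Among genes above all controls in every resilient mouse, the long noncoding RNA 2900097C17Rik (ENSMUSG00000102869, GRCm38 chr2:156388065-156392979) was at 20.8, 26.5, 26.6, 22.5 and 21.8 CPM in controls and 28.4, 32.1, 34.2, 29.3 and 28.7 CPM in resilient mice. Its difference was small and present in both library sets, at 0.45 and 0.29 (log2 fold change 0.37, SE 0.11, edgeR unadjusted p = 0.00306). Profilin 2 (Pfn2), which binds actin, was at 194 to 225 and 228 to 269 CPM. Arpc2, a subunit of the Arp2/3 complex that branches actin, was at 62.1 to 72 and 72.4 to 82.4. On the log2 scale Pfn2 differed by 0.23 (SE 0.15) and Arpc2 by 0.20 (SE 0.14), neither at an unadjusted p under 0.05. Terf2, a telomere protein, was at 31.1 to 35.1 and 35.7 to 38.3 CPM, and Tcaf1, a regulator of the cold channel TRPM8, at 248 to 287 and 297 to 321. The log2 differences of Terf2 and Tcaf1 were 0.15 (SE 0.094) and 0.16 (SE 0.15), and both were below 0 with library sizes in place of TMM. Gm4366, 1700037C18Rik, Tmem107 and Fam207a had log2 differences of 0.50 (SE 0.26), 0.53 (SE 0.29), 0.52 (SE 0.33) and 0.25 (SE 0.22).

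Of 32 mature oligodendrocyte genes tested, the cells that make myelin, 7 were above 0 and 0 had an unadjusted p under 0.05 (median −0.11). Mobp, a protein of compact myelin, was at 404, 464, 827, 588 and 1106 CPM in controls and 685, 603, 425, 813 and 876 CPM in resilient mice (log2 difference 0.00565, SE 0.33). Controls spread more widely than the groups differed. Opalin was at 16.9 to 46.3 and 14.8 to 33.2 CPM (−0.11, SE 0.32) and Ermn at 50.5 to 163 and 45.4 to 90.5 (−0.29, SE 0.37). Control 5 was the highest of the 10 mice for all 3, and the sign of each difference turned when some single mouse was left out. Of 20 precursor genes, 8 were above 0 (median −0.11), and Pdgfra, the PDGF receptor of these cells, was at 35.2 to 56.3 and 39.8 to 56.4 CPM.

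**Figure D4:**
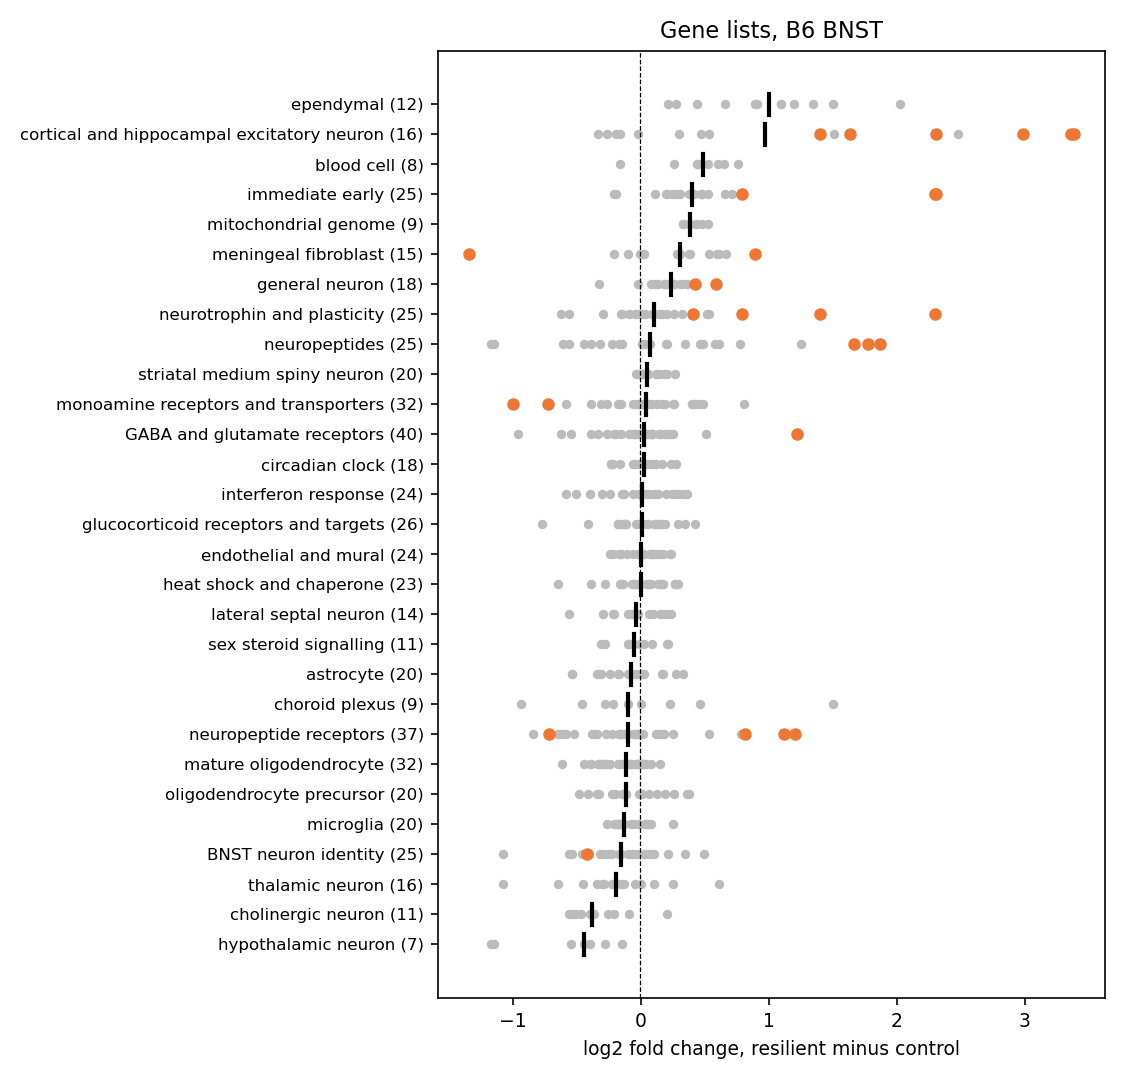
Log2 fold change, resilient minus control, of the tested members of the 29 gene lists, 1 point per gene, with the median of each list. The cortical and hippocampal list reaches 3.39 and has a median of 0.97, beside −0.00676 over all genes.

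Ependymal genes, of the ciliated cells that line the ventricles, were above 0 in 12 of 12 tested (median 1.003), with 0 at an unadjusted p under 0.05. Of the 16 listed, 4 were not tested. Resilient mouse 5 was highest for Foxj1, the factor of motile cilia (32.2 CPM, beside 5.9 to 15.4 in controls), and for the cilia gene Hydin (17.8 CPM, beside 0.826 to 4.98), and without it the median was −0.22. Astrocyte genes were above 0 in 7 of 20 (median −0.075), microglia genes in 5 of 20 (−0.13), endothelial and mural genes in 13 of 24 (0.00713), choroid plexus genes in 4 of 9 (−0.095) and blood cell genes in 7 of 8 (0.49), with 0 at an unadjusted p under 0.05 in each. Of 15 meningeal fibroblast genes, 11 were above 0 (median 0.31). Aldh1a2, a retinaldehyde dehydrogenase, was at 1.53, 1.26, 1.72, 1.65 and 2.3 CPM in controls and 0.558, 0.132, 0.389, 0.725 and 1.52 CPM in resilient mice (log2 fold change −1.34, SE 0.43, edgeR unadjusted p = 0.00462), and the collagen gene Col3a1 was higher (0.89, SE 0.40), so the list had no common direction. Spp1, osteopontin, picked for its low score, had a log2 fold change of −1.72 (SE 0.67) and −0.49 without control 5, which was at 34.4 CPM.

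Neurons of neighboring regions had 0 genes at an unadjusted p under 0.05. Striatal genes were above 0 in 16 of 20 (median 0.050), lateral septal genes in 6 of 14 (−0.038) and thalamic genes in 4 of 16 (−0.19). Cholinergic genes were above 0 in 1 of 11 (−0.38) and hypothalamic genes in 0 of 7 tested (−0.44). Of the 19 hypothalamic genes listed, 12 were not tested. The dopamine receptor Drd1 was at 112 to 168 CPM in controls and 93.3 to 206 in resilient mice, and Chat, which makes acetylcholine, at 12.5 to 28.5 and 8.24 to 23.7. Without the 4 libraries the cholinergic median was 0.021. Of the 25 tested genes of BNST neurons, 8 were above 0 (median −0.15), and Isl1, a LIM homeobox factor of ventral forebrain neurons, was lower at an unadjusted p under 0.05. It was at 17.5, 11.5, 17.3, 11.3 and 13.9 CPM in controls and 12.6, 12.9, 5.67, 12.7 and 9.54 CPM in resilient mice (log2 fold change −0.42, SE 0.19). Resilient mice 3 and 5, both of library set 1, were the lowest, and the difference was −0.93 in set 1 and −0.13 in set 2.

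Of 26 glucocorticoid receptors and targets, 14 were above 0 (median 0.0099) and 0 had an unadjusted p under 0.05. The glucocorticoid receptor Nr3c1 was at 98.9, 92.2, 95.9, 68.1 and 108 CPM in controls and 106, 84.6, 87, 89.7 and 111 CPM in resilient mice, and its target Fkbp5, a cochaperone that dampens the receptor, at 18.7 to 28.2 and 18.9 to 26.1. Sex steroid genes were above 0 in 4 of 11 (median −0.050), and Esr1, an estrogen receptor, was at 1.99 to 5.18 and 1.88 to 5.6 CPM. Clock genes were above 0 in 10 of 18 (0.027), interferon genes in 13 of 24 (0.00993) and heat shock genes in 12 of 23 (0.00327). Genes of the mitochondrial genome were above 0 in 9 of 9 tested (0.38), while 6 of the 15 listed were not tested. In each of these lists, again 0 had an unadjusted p under 0.05. The mitochondrial median was −0.32 without the 4 libraries. With library sizes in place of TMM the median of all genes was −0.17, and the medians between 0 and that of the neurotrophin list turned negative (neurotrophin list −0.069), while those of the cortical, immediate early, ependymal, meningeal, blood, general neuronal and mitochondrial lists stayed above 0.

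Compared with the 5 susceptible B6 mice, resilient mice differed in 1 of 17515 genes at an adjusted p under 0.05 (0.00571%) and in 1323 at an unadjusted one (7.55%), with 706 higher (4.03%) and 617 lower (3.52%) in susceptible mice. The 1 gene was Muc16, a membrane mucin, at 0 to 0.389 CPM in resilient and 0.651 to 3.26 CPM in susceptible mice, with 0.423 to 0.597 CPM in controls (log2 fold change, susceptible minus resilient, 3.36, SE 0.54, edgeR adjusted p = 0.0234). No B6 control or resilient mouse reached 1 CPM, so Muc16 entered the test only through other libraries, susceptible ones among them. Its levels were near the floor, and the call is given as a description. The call was lost without the 4 libraries (0 genes), a fit that kept only resilient mice 1 and 4. The cortical markers Slc17a7 and Neurod2 were low in susceptible mice. Slc17a7 was at 2.08, 1.69, 22.1, 6.78 and 3.93 CPM and Neurod2 at 0.208, 0.89, 0.947, 0.134 and 1.39 CPM. For Slc17a7 and Neurod2, no susceptible mouse reached the levels of resilient mice 2, 3 and 5. Emx1, too low to be tested, gave 0, 0, 22, 0 and 0 reads in susceptible mice, beside 14 in resilient mouse 2. The same resilient mice enter both comparisons, so the values are only set side by side.

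In D2 mice, 3 resilient and 5 control mice gave 0 genes at an adjusted p under 0.05 by edgeR (0%) and 953 at an unadjusted one (5.44%), with 385 higher (2.2%) and 568 lower (3.24%). The test of the difference between strains, D2 minus B6, gave 0 (0%) and 588 (3.36%), 251 of them higher (1.43%) and 337 lower (1.92%), and DESeq2 called 2. Nedd9 was at 8.62 to 13.2 CPM in D2 controls and 12.9 to 17.9 CPM in D2 resilient mice, ranges that overlapped. Its log2 difference in D2 was 0.36 (SE 0.15, edgeR unadjusted p = 0.0269, adjusted p = 0.902), the opposite sign from B6. The interaction was 0.86 on the log2 scale (edgeR unadjusted p = 0.000267) and did not pass adjustment. Gh was at 0.0586 to 1.004 and 0 to 0.795 CPM in D2 controls and resilient mice (interaction −7.52, edgeR unadjusted p = 0.000440), and also did not pass. Nedd9 and Gh were picked for their B6 values, which enter the interaction, so small unadjusted p-values were partly built in. Slc17a7 was at 8.02, 0.0836, 15.5, 12.6 and 119.7 CPM in D2 controls 1 to 5 and 3.1, 5.76 and 5.94 in D2 resilient mice 1 to 3. Cck was at 6.97, 3.68, 23.3, 10.5 and 70.2 CPM in these controls and 5.66, 11.5 and 5.94 in the resilient mice. Neurod2 was at 1.9, 0.167, 0.704, 3.27 and 0.539 CPM and 0.608, 0.993 and 0.792, in the same order. No D2 resilient mouse reached the levels of B6 resilient mice 2, 3 and 5 for these genes. D2 control 5, undefeated, was above B6 control 2 for Slc17a7 and within the range of those 3 mice for Cck, but low for Neurod2.

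**Figure D5:**
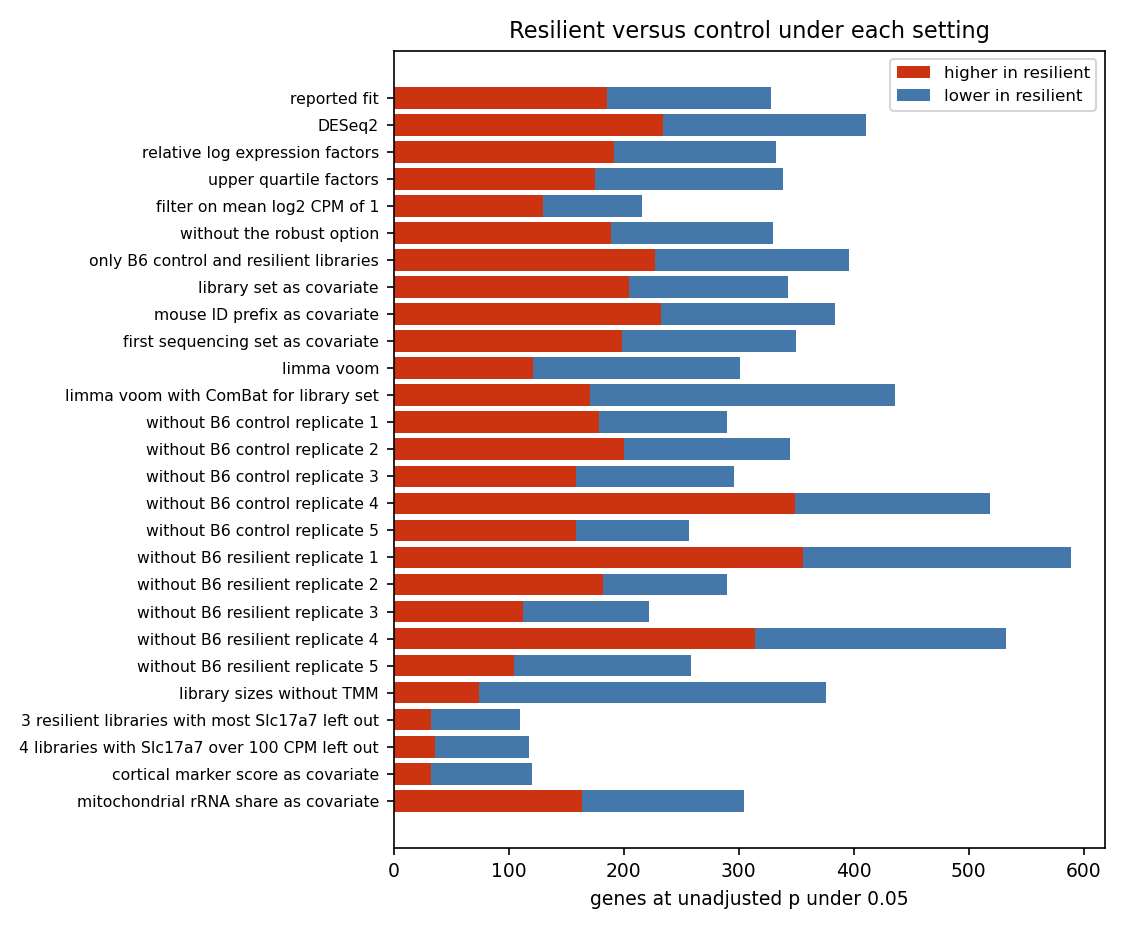
Number of genes at an unadjusted p under 0.05 in resilient against control B6 mice (x axis) under each setting (y axis), split into higher and lower. The reported fit gives 328 (186 higher) and leaving out the 4 of the 10 compared libraries over 100 CPM of Slc17a7 gives 118 (36 higher). The setting with no filter (1584 genes) is not drawn.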

How the data were processed

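RNA-seq counts per gene of the 28 BNST libraries were used as deposited. Per the study's methods, the authors depleted rRNA by insert-dependent adaptor cleavage, trimmed adapters with the FastX toolkit, removed PCR duplicates with PRINSEQ, used STAR for alignment (GRCm38) and HTSeq for exon counts. The deposited counts carry no normalization. Strand use in counting is not given in the sources used here, so overlapping antisense genes cannot be told apart. Tables of the other regions were not used here. Library and sequencing sets came from the study's sample table.

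Genes with 1 CPM in at least 6 of 28 libraries (17515 of 48795) were fitted in edgeR 4.0.16 (R 4.3.3; TMM, robust quasi-likelihood, means of the 6 BNST groups, prior count 0.5) with Benjamini-Hochberg adjustment. Alternatives used DESeq2 1.42.0, limma 3.58.1 (voom) and sva 3.50.0 (ComBat). Exact permutation tests used SciPy 1.17.1. In simulated counts for this comparison over 17515 genes, 58% of 200 genes changed by 1 on the log2 scale and 85% of those changed by 2 were recovered. Among unchanged genes, 5 and 6 were called. Genes were drawn independently around a mean common to all groups, without the shared pattern of resilient mice 2, 3 and 5. These shares thus need not hold for the real counts. Positions are from GENCODE M21 (99.62% of tested genes had a symbol).

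Named genes were those called by edgeR or DESeq2; the 8 highest and 8 lowest scores (−log10 p times log2 fold change) among genes averaging at least 1 CPM whose groups did not overlap; likewise 5 and 5 at 20 CPM; the first gene and up to 3 members at an unadjusted p under 0.05 of each list; and myelin genes of the study's q-RT-PCR. Some genes under this rule are not reported here. All others (among them Gad1, Gad2, Prl, Cga, Emx1, Cyp19a1, Klhl6, Spp1, Nptxr, Neurod6, Tbr1 and Fezf2) were chosen after their values were seen. Members and lists were chosen with earlier results of these data known.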

Additional observations from a re-analysis of the deposited data

Results flagged for a closer look

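In 196 groups of 5 mice (95 genes and 3 library properties, in controls and resilient mice), 4 groups held a mouse that stood apart, its gap to the nearest mouse over the group's range being above Dixon's critical value of 0.71, with genes taken as log2 CPM. Chance gives about 1 in 20 groups. Elf4 was at 0.311 CPM in resilient mouse 3 (gap over range 0.828), Ttr, transthyretin, at 0.0777 CPM in the same mouse (0.814) and Ifit1, an interferon-induced gene, at 0.466 CPM in the same mouse (0.801). Tcaf1 was at 248 CPM in control 5 (0.711). All 4 were low values, to which the log2 scale gives more weight, and 3 of the 4 came from resilient mouse 3. With genes taken as CPM, none of the 4 was over the critical value (Elf4 0.671, Ttr 0.473, Ifit1 0.666 and Tcaf1 0.696), and 14 other groups were, all through a high value, so these results depend on the scale.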

How the results depend on the processing

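Of 95 genes examined, 48 had an unadjusted p under 0.05 or, for Slc17a7, a test as a marker. All 48 kept their sign in 22 alternatives. In at least 1 of 5 further ones, added after seeing the data, 24 changed sign. Apart from Slc17a7, the 48 were picked by their p in these same mice. The 22 alternatives reused nearly the same mice, so a kept sign was largely built in. The other 47 were treated as levels, and 30 of them changed sign in at least 1 alternative. With the 4 of the 10 compared libraries over 100 CPM of Slc17a7 left out, the log2 fold changes that turned were Vip −0.58, Cck −1.19, Cort −2.14, Sstr3 −0.63, Cckbr −0.73, Grm2 −0.77, Bdnf −0.75, Nr4a2 −1.05, Nptx2 −0.19, Slc17a7 −2.03, Nptx1 −0.28, Neurod2 −0.93, Snap25 −0.16, Rtn4rl2 −0.061, Prdm8 −1.02, Vxn −0.22, Slc30a3 −1.67, Nxph3 −0.70, Nptxr −0.39, Neurod6 −1.35, Tbr1 −1.14, Fezf2 −0.26, Sstr2 −0.13 and Nrg3 −0.092. With the cortical list as a covariate they were Cck −0.33, Cort −0.35, Cckbr −0.030, Nr4a2 −0.10, Slc17a7 −0.88, Neurod2 −0.036, Slc30a3 −0.55, Nxph3 −0.15, Neurod6 −0.059 and Tbr1 −0.021. The fit without the 4 libraries kept only resilient mice 1 and 4 of that group. Lower values were thus built into it for genes highest in resilient mice 2, 3 and 5. For Gh, DESeq2 gave 6.83 and the fit without resilient mouse 5 gave 7.05, both past an adjusted p of 0.05.

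Genes at an adjusted p under 0.05 between resilient and control mice were 0, but 1 by DESeq2 and 0 to 1 with a mouse left out. Those at an unadjusted p under 0.05 were 328, but 1584 with no filter, 216 with only genes of mean log2 CPM 1 or more, 222 (without resilient mouse 3) to 589 (without resilient mouse 1) with a mouse left out, and 519 without control 4 and 533 without resilient mouse 4. They were 118 without the 4 libraries, 110 without resilient mice 2, 3 and 5 alone, and 120 with the cortical covariate. The exclusion of the 3 resilient mice alone was computed for counts and list medians only, since it drops mice from 1 group. Between strains DESeq2 called 2 genes where edgeR called 0. Between susceptible and resilient mice the 1 call became 42 by DESeq2, 7 by voom with ComBat, 0 by voom and with the mean filter, 0 to 2 with a mouse left out (0 without resilient mouse 1, 2 or 5), and 0 without the 3 or 4 libraries and with the cortical covariate. Counts by limma voom were split 121 higher and 180 lower and by voom with ComBat 171 and 265, and library sizes without TMM gave 74 and 302, against 186 and 142. The causes were not tested. The medians of 29 lists moved by over 1 SD in 28 cases. Without resilient mouse 3, log2 fold changes that moved by over 1.5 times were Bdnf 1.25, Nr4a2 0.99, Cort 1.06, Nptxr 0.68, Sstr2 0.51, Syt1 0.26 and Isl1 −0.26, and without resilient mouse 5 Fezf2 0.99 and without resilient mouse 2 Col3a1 0.54. Besides Cck, Htr4 and Grm2, the library sets gave opposite signs for Cort, Nptx2, Nrg3, Nptxr, Snap25 and Col3a1. With the mouse ID prefix of the sample titles, which both groups share, as a covariate there were 384 genes at an unadjusted p under 0.05, and with library set 343, both with 0 at an adjusted one. No paired analysis was possible because the labels number no replicates across groups and do not say what the prefix marks, and no mouse is in both groups.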
